A study of Mus musculus with 6 samples.

Results

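The genes described here encode the enzymes that carry pyruvate into the tricarboxylic acid (TCA) cycle, the enzymes of the cycle itself, the malate-aspartate shuttle and the malic enzymes. They were taken by name from a list of 31 genes, and all 31 had at least 1 probe set of their own among the 18193 genes measured. Sorted by role, 5 act at pyruvate entry, 17 in the cycle, 6 in the shuttle, and 3 are malic enzymes. Dld also serves pyruvate entry and Mdh2 also serves the shuttle, and both are counted with the cycle. RNA of isolated C57BL/6J mouse heart cells was hybridised to 6 Affymetrix arrays of 1 colour, and each of the 3 groups had 2 arrays. Adult cardiomyocytes came from male hearts at 8 weeks of age and were released by Langendorff perfusion. Neonatal cardiomyocytes and neonatal cardiac fibroblasts were taken at postnatal day 1 from mice of both sexes, and a Percoll density step split the dissociated cells. The treatment protocol adds that cells were expanded on a dish and checked for the absence of cardiomyocytes with the mitochondrial dye TMRM, while the growth protocol calls all cells freshly obtained. Adult and neonatal groups differ in age, in sex and in how the cells were released, and these cannot be told apart. The labels name no transgene and no drug. Nothing in the labels ties arrays to separate mice or cell preparations; p-values therefore cover the spread of these 6 arrays, possibly a technical one.

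The TCA cycle oxidises acetyl-CoA to carbon dioxide and passes the electrons to the respiratory chain as NADH and, at succinate dehydrogenase, directly to ubiquinone. Pyruvate enters through the pyruvate dehydrogenase complex, or through pyruvate carboxylase, which refills the cycle with oxaloacetate. The inner mitochondrial membrane does not let NADH through, and the malate-aspartate shuttle moves its electrons inward with a cytosolic and a mitochondrial malate dehydrogenase, the matching pair of aspartate transaminases, and carriers for malate and aspartate. The adult heart draws most of its energy from mitochondrial oxidation, whereas the heart around birth relies more on glycolysis and lactate. Malic enzymes run from malate to pyruvate and yield NADPH or NADH.

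Promoter sequences were examined because most of these genes differed in the same direction between the groups. RefSeq promoters of build GRCm38.p6, each with 250 bases before and 50 bases from the start site on, were found for 28 of the 31 genes. Letters of known regulators of mitochondrial genes were searched on both strands. The NRF1 motif, 10 letters with any base at the sixth (in capitals in the sequences), stood in 4 of the 28 genes (14.3%: Dld, Sdha, Sdhd and Sucla2), against 5.19% of the 27025 genes with a promoter in that table. The estrogen-related receptor letters TNAAGGTCA were found in Sdhd alone, in the bases after its start site (3.57% of the 28, against 1.43% of all), and the YY1 letters AAGATGGCG in Idh3g alone (3.57%, against 1.64%). A match is a description of the letters and not a bound site. The 250 bases before the start site are shown for the genes with NRF1 letters there, 5′ to 3′ on the gene's strand with the NRF1 letters in capitals, for Sdha (chr13:74350241-74350490, minus strand), Sdhd (chr9:50603850-50604099, minus strand) and Sucla2 (chr14:73552536-73552785, plus strand):
Sdha: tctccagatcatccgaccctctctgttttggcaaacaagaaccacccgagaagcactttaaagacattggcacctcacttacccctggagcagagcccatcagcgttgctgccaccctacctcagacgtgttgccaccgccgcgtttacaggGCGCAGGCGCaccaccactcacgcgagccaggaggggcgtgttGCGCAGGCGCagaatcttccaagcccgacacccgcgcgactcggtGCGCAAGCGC
Sdhd: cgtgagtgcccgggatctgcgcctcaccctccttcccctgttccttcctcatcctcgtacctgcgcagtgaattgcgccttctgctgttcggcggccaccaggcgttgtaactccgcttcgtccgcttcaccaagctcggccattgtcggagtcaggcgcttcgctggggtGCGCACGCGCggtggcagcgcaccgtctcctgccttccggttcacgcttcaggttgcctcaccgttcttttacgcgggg
Sucla2: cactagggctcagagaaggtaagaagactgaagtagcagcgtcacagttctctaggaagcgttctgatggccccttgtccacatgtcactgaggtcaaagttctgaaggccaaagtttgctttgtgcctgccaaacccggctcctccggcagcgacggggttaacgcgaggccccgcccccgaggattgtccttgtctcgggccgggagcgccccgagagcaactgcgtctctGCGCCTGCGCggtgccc
The Sdha promoter held the NRF1 letters 3 times, with first bases 98, 55 and 10 bases before the start site. In Sdhd they began 79 bases and in Sucla2, on the opposite strand, 17 bases before it. The values of these genes are given with succinate dehydrogenase and succinyl-CoA synthetase.

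Values are log2 RMA values of the gene's probe set, so a difference of 1 is a 2-fold difference, and levels of different probe sets cannot be compared with each other. Array medians over all probe sets lay between 5.60 and 5.67. Arrays were grouped by source name, which matches the cell type label; for both neonatal replicate 1 arrays the title names the opposite cell type, so marker genes were read first. The median of 8 cardiomyocyte markers was 14.14 and 14.04 in adult cardiomyocytes, 14.02 and 13.54 in neonatal cardiomyocytes, and 7.48 and 10.78 in fibroblasts (replicate 1 and replicate 2 in each pair). For 8 fibroblast markers the median was 7.77 and 9.58 in adult cardiomyocytes, 11.05 and 9.94 in neonatal cardiomyocytes, and 12.97 and 12.12 in fibroblasts. For 7 leukocyte markers it was 7.15 and 8.77 in adult cardiomyocytes, 7.88 and 5.39 in neonatal cardiomyocytes, and 12.34 and 9.55 in fibroblasts. For 6 endothelial markers it was 8.38 and 9.56 in adult cardiomyocytes, 9.02 and 7.55 in neonatal cardiomyocytes, and 5.91 and 7.04 in fibroblasts. Of both neonatal replicate 1 arrays, the one with the cardiomyocyte source name and the fibroblast title had the higher cardiomyocyte median (14.02 against 7.48). It also had the lower fibroblast median (11.05 against 12.97). On both marker lists these arrays thus went with the source name and not with the title. Fibroblast replicate 2 had the higher cardiomyocyte median of its pair, and fibroblast replicate 1 the higher leukocyte median. In such pooled RNA, fewer cells of a type and less RNA per cell cannot be told apart. The signal at the 3′ end of beta-actin exceeded that at the 5′ end by 0.80 and 0.81 on the adult arrays, 0.77 and 0.45 on the neonatal cardiomyocyte arrays, and 0.26 and 0.31 on the fibroblast arrays. The same measure of Gapdh lay between 0.09 and 0.24 on all 6 arrays. The part of marker content and of this actin measure in the differences below was not tested.

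Adult cardiomyocytes had the highest and neonatal cardiac fibroblasts the lowest mean for 29 of the 31 genes, with neonatal cardiomyocytes between them. The exceptions were Pcx and Me2. Over all genes 30.2% had that order of means. For 25 of the 31 the arrays of the 3 groups did not overlap in that order, against 9.55% of all genes. The 6 others were Idh2, Sdhc, Fh1, Pcx, Me1 and Me2. For 26 of the 31 the difference between neonatal cardiomyocytes and fibroblasts was larger than that between adult and neonatal cardiomyocytes, without a test of that contrast; the other 5 were Suclg2, Pcx, Me1, Me3 and Slc25a11. These comparisons share arrays, so their differences are not independent of each other.

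**Figure D1:**
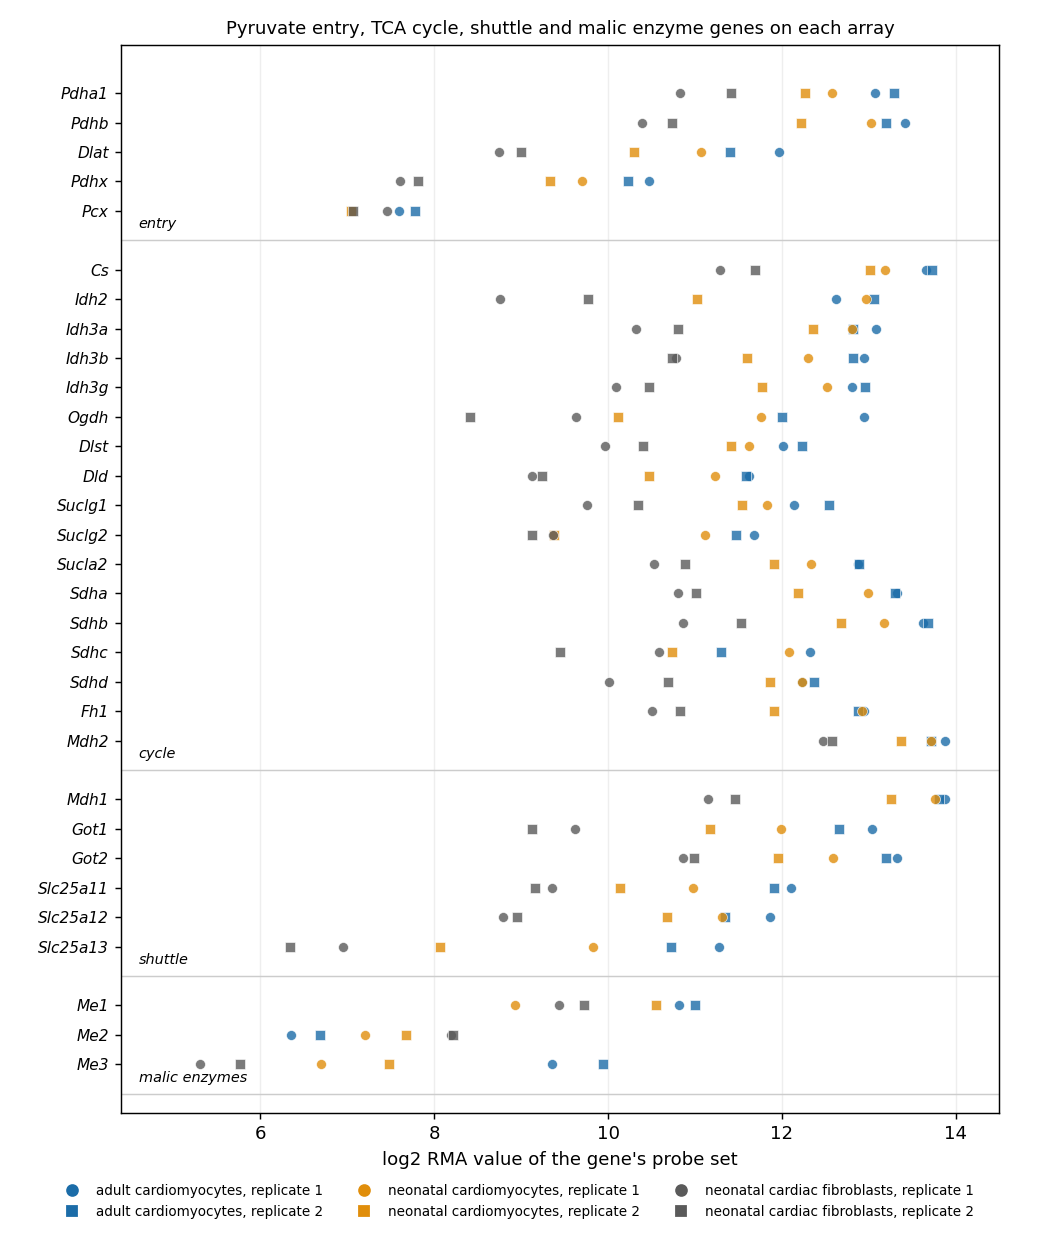
Log2 RMA value (x axis) of each of the 31 genes (rows, grouped by role) on each of the 6 arrays. Blue is adult cardiomyocytes, orange neonatal cardiomyocytes, grey neonatal cardiac fibroblasts; circles are replicate 1 and squares replicate 2. Most rows run from grey through orange to blue, and the Me2 row runs the other way.

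Against neonatal cardiac fibroblasts, adult cardiomyocytes had higher levels of nearly the whole set. By limma with Benjamini-Hochberg adjustment over 18193 genes and a threshold of 0.05, 27 of the 31 genes rose and 1 fell, 28 calls in all, where 21.0% of all genes were called, 10.1% upward and 11.0% downward. The median difference was 2.39, against 0.09 over all genes. Members not called were Sdhc (1.80, adjusted p = 0.113), Me1 (1.33, 0.145) and Pcx (0.43, 0.194). The adult arrays lay above the fibroblast arrays without overlap for 30 of the 31, against 37.8% of all genes, and below them for Me2, against 30.2%. At unadjusted p under 0.05 limma passed 29 of the 31, against 37.0% of all genes. Of the 22 members with several probe sets, 7 had at least 1 probe set of opposite sign between adult cardiomyocytes and fibroblasts (Dld, Dlst, Got2, Idh3b, Mdh1, Sdha and Sucla2). These opposite probe sets were dim, with means of 3.48 to 6.65 over the 6 arrays, except that of Idh3b (9.92). The probe sets used for the same genes had 10.55 to 12.88. Age, sex and cell type all differ in this comparison. The count of 28 became 0 without adult replicate 1 and 1 (Pdhx) without adult replicate 2, where limma passed 27 and 29 of the 31 at unadjusted p under 0.05. It was 16 without fibroblast replicate 1, 11 without both neonatal replicate 1 arrays and 0 with the groups of the titles, with 30, 30 and 5 at unadjusted p under 0.05.

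Between the neonatal cell types, cardiomyocytes had the higher mean for 29 of the 31 genes, with a median difference of 1.67 against −0.02 over all genes. Only Mdh1 and Pdhx rose, 2 of the 31, where 0.819% of all genes were called, 0.676% upward and 0.143% downward. At unadjusted p under 0.05 limma passed 27 of the 31, against 16.3% of all genes, and the arrays did not overlap for 28 in the upward direction, against 22.3% of all genes, and for 2 (Pcx and Me2) in the downward direction, against 23.2%. The adjusted p of the cycle genes lay between 0.0515 and 0.488. In this comparison 6 of the 22 members with several probe sets had at least 1 of opposite sign (Dld, Dlst, Mdh1, Me1, Sdha and Sucla2). The opposite probe sets had means of 3.48 to 6.65 over the 6 arrays, except that of Me1 (9.61, with a difference of −0.01). The number of calls changed here too with the arrays fitted, as described with the processing. Over single arrays left out the median difference lay between 1.29 (without neonatal cardiomyocyte replicate 1) and 1.98 (without neonatal cardiomyocyte replicate 2). With the groups of the titles the median difference turned to −0.40, with 0 members called by limma and 0 at unadjusted p under 0.05. Of all genes 0 were called with those groups.

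Adult cardiomyocytes had a higher mean than neonatal ones for 30 of the 31 genes, with a median difference of 0.74 against 0.09 over all genes. Me3 alone rose, 1 of the 31 (3.23%), where 2.30% of all genes were called, 1.08% upward and 1.22% downward, so the share called was close to the background. Limma passed 15 of the 31 at unadjusted p under 0.05, against 22.8% of all genes. The adult arrays lay above the neonatal ones without overlap for 27, against 33.9% of all genes, and below them for Me2 alone, against 23.8%. Of the 22 members with several probe sets, 8 had at least 1 of opposite sign here (Dlst, Got2, Idh3b, Mdh1, Sdha, Sdhd, Slc25a12 and Sucla2). The opposite probe sets had means of 4.37 to 6.65 over the 6 arrays, except those of Idh3b (9.92) and Sdhd (9.03, with a difference of −0.0048). Much of the spread lay within the neonatal pair: replicate 1 exceeded replicate 2 for 28 of the 31 genes, with a median gap of 0.63, where the median gap over all genes was −0.01. The adult pair differed by 0.07 and the fibroblast pair by −0.26 in the same measure. Without neonatal cardiomyocyte replicate 2 the median difference was 0.50 and 27 of the 31 had a higher adult mean, and without neonatal cardiomyocyte replicate 1 it was 1.03. The Me3 call between adult and neonatal cardiomyocytes was lost when any single array of the 6 was left out. Fewer of all genes were called there too, and the Me3 difference lay between 2.17 and 2.95.

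**Figure D2:**
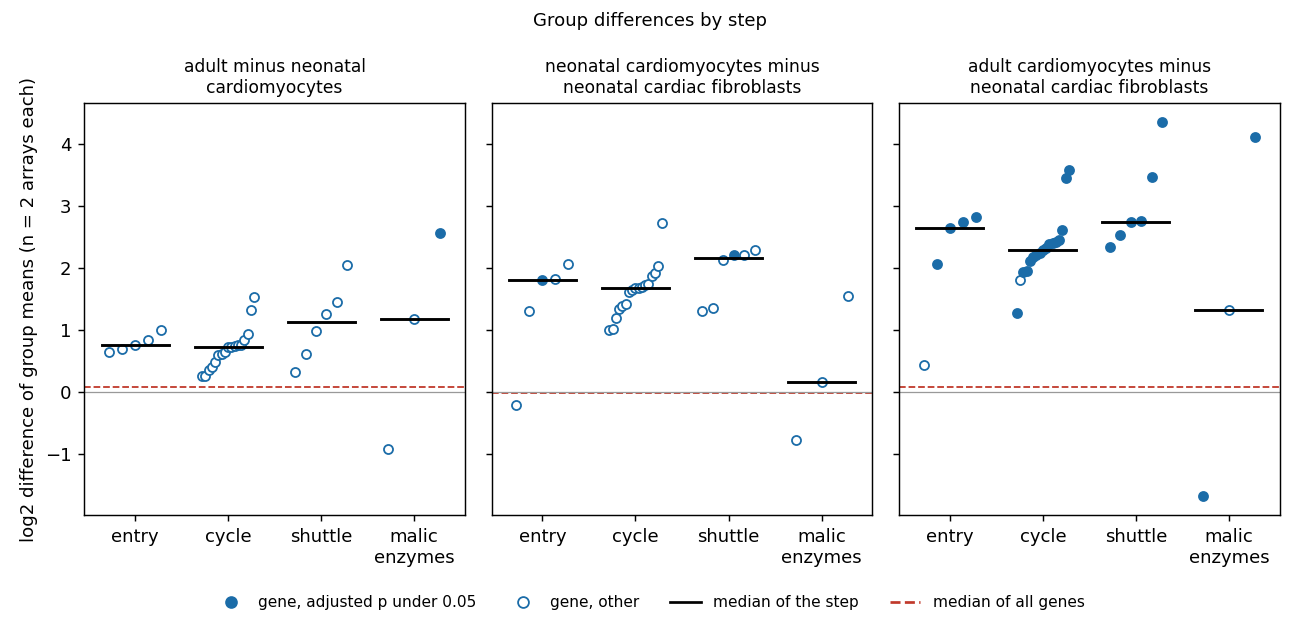
Log2 difference of group means (y axis, 2 arrays a group) for each gene, by role (x axis), in the 3 comparisons. Filled points passed adjusted p under 0.05 in limma, black bars are the median of each role and the dashed line is the median of all genes. Filled points are few in the left and middle panels and make up 28 of 31 in the right one.

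By role, the median difference between adult and neonatal cardiomyocytes was 0.76 for entry, 0.73 for the cycle, 1.13 for the shuttle and 1.17 for the malic enzymes. Between neonatal cardiomyocytes and fibroblasts it was 1.80, 1.67, 2.16 and 0.15, and between adult cardiomyocytes and fibroblasts 2.64, 2.29, 2.74 and 1.33, in the same order of roles. The ranges of these roles overlapped, and with 2 arrays a group no test between roles was made. Of the entry genes, 4 of 5 rose between adult cardiomyocytes and fibroblasts, of the cycle genes 16 of 17, of the shuttle genes 6 of 6, and of the malic enzymes 1 of 3 rose and 1 fell, where 10.1% of all genes rose and 11.0% fell.

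At pyruvate entry, the 4 pyruvate dehydrogenase complex genes of the list all rose in adult cardiomyocytes over fibroblasts. Pdhx, which binds dihydrolipoamide dehydrogenase to the core of the complex, read 10.47 and 10.23 in adult cardiomyocytes, 9.70 and 9.33 in neonatal cardiomyocytes, and 7.61 and 7.81 in fibroblasts. It rose by 1.80 ± 0.22 (SE) in neonatal cardiomyocytes over fibroblasts (3.49-fold, adjusted p = 0.0459) and by 2.64 ± 0.22 in adult cardiomyocytes over fibroblasts (6.25-fold, 0.00613). The adult arrays also lay above the neonatal cardiomyocyte arrays, by 0.84 in the mean (adjusted p = 0.117), and no groups overlapped.

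Pdha1, the X-linked catalytic alpha subunit, read 13.07 and 13.29 in adult cardiomyocytes, 12.58 and 12.26 in neonatal cardiomyocytes, and 10.83 and 11.41 in fibroblasts. Its partner Pdhb, the beta subunit, read 13.42 and 13.20 in adult cardiomyocytes, 13.02 and 12.22 in neonatal cardiomyocytes, and 10.39 and 10.73 in fibroblasts. Dlat, the acetyltransferase that forms the core, read 11.96 and 11.40 in adult cardiomyocytes, 11.07 and 10.30 in neonatal cardiomyocytes, and 8.74 and 9.00 in fibroblasts. In each of these genes every adult array lay above every neonatal cardiomyocyte array, and those above every fibroblast array. Their differences between adult cardiomyocytes and fibroblasts were 2.06, 2.75 and 2.81 (adjusted p = 0.0114, 0.00933 and 0.0103). In adult against neonatal cardiomyocytes they were 0.76, 0.69 and 1.00, with adjusted p between 0.183 and 0.272. A second Dlat probe set, 1452005_at, read 11.37 and 11.32 in adult cardiomyocytes, 9.68 and 9.31 in neonatal cardiomyocytes, and 6.99 and 7.46 in fibroblasts, a wider spread than that of the probe set used.

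Pcx, pyruvate carboxylase, did not share this pattern: it read 7.60 and 7.78 in adult cardiomyocytes, 7.05 and 7.05 in neonatal cardiomyocytes, and 7.45 and 7.06 in fibroblasts. The fibroblast arrays lay above the neonatal cardiomyocyte arrays, replicate 2 only just, and below the adult ones. No difference passed the threshold, with 0.64 between adult and neonatal cardiomyocytes (adjusted p = 0.159) and −0.21 between neonatal cardiomyocytes and fibroblasts (0.724). Probe sets for Pcx among the array maker's controls were left out, and with them in place no Pcx call was made either.

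Citrate synthase, Cs, which joins acetyl-CoA to oxaloacetate, read 13.66 and 13.73 in adult cardiomyocytes, 13.19 and 13.01 in neonatal cardiomyocytes, and 11.28 and 11.69 in fibroblasts. The difference between adult cardiomyocytes and fibroblasts was 2.21 ± 0.21 (4.62-fold, adjusted p = 0.00758), and that between neonatal cardiomyocytes and fibroblasts was 1.61 ± 0.21 (0.0515). Against neonatal cardiomyocytes, adult cells were higher by 0.59 (0.186). The 3 groups did not overlap, and the other Cs probe sets had the same signs.

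The NAD-dependent isocitrate dehydrogenase is built from the products of Idh3a, the catalytic subunit, and of Idh3b and Idh3g, which are regulatory. Idh3a read 13.08 and 12.81 in adult cardiomyocytes, 12.81 and 12.36 in neonatal cardiomyocytes, and 10.32 and 10.80 in fibroblasts. Idh3g, like Pdha1 on the X chromosome, read 12.81 and 12.96 in adult cardiomyocytes, 12.52 and 11.77 in neonatal cardiomyocytes, and 10.09 and 10.47 in fibroblasts. Between adult cardiomyocytes and fibroblasts, Idh3a rose by 2.39 and Idh3g by 2.60 (adjusted p = 0.00917 and 0.00955). Between adult and neonatal cardiomyocytes the differences were 0.36 and 0.74, neither called, and neonatal cardiomyocyte replicate 1 nearly met the lower adult array of Idh3a.

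Idh3b read 12.94 and 12.81 in adult cardiomyocytes, 12.30 and 11.60 in neonatal cardiomyocytes, and 10.79 and 10.73 in fibroblasts on the probe set used, 1418886_s_at, and rose by 2.12 between adult cardiomyocytes and fibroblasts (0.0112). Another Idh3b probe set, 1418885_a_at, ran the other way: 8.87 and 9.04 in adult cardiomyocytes, 10.33 and 10.63 in neonatal cardiomyocytes, and 10.37 and 10.31 in fibroblasts. On that probe set the adult arrays lay below both other groups, by 1.52 against neonatal cardiomyocytes, while neonatal cardiomyocytes and fibroblasts lay close together. The transcripts that each probe set reads were not examined here.

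Idh2, the mitochondrial isocitrate dehydrogenase that yields NADPH, was among the cycle genes with the larger differences between adult cardiomyocytes and fibroblasts, beside Ogdh. It read 12.62 and 13.06 in adult cardiomyocytes, 12.96 and 11.02 in neonatal cardiomyocytes, and 8.76 and 9.77 in fibroblasts. Neonatal cardiomyocyte replicate 1 lay among the adult arrays, and replicate 2 was lower by 1.94. A second, dimmer Idh2 probe set differed by 0.89 between adult cardiomyocytes and fibroblasts. On the probe set used the rise was 3.58 ± 0.71 (11.9-fold, adjusted p = 0.0273), and the difference between neonatal cardiomyocytes and fibroblasts was 2.73 ± 0.71 (0.155).

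The alpha-ketoglutarate dehydrogenase complex is formed by the products of Ogdh, Dlst and Dld. Ogdh, its decarboxylating subunit, read 12.95 and 12.00 in adult cardiomyocytes, 11.76 and 10.11 in neonatal cardiomyocytes, and 9.63 and 8.41 in fibroblasts. Replicate 1 exceeded replicate 2 in each group, by 0.95, 1.65 and 1.21. Ogdh rose by 3.45 ± 0.72 between adult cardiomyocytes and fibroblasts (0.0305), and differed by 1.54 ± 0.72 between adult and neonatal cardiomyocytes (0.278). Dlst, the succinyltransferase core, read 12.02 and 12.23 in adult cardiomyocytes, 11.62 and 11.41 in neonatal cardiomyocytes, and 9.97 and 10.40 in fibroblasts. Dld, the dehydrogenase shared with the pyruvate complex, read 11.62 and 11.58 in adult cardiomyocytes, 11.23 and 10.47 in neonatal cardiomyocytes, and 9.12 and 9.24 in fibroblasts. Both had tighter pairs and non-overlapping groups, and rose by 1.94 and 2.42 between adult cardiomyocytes and fibroblasts (adjusted p = 0.00922 and 0.00959). The Dlst call was lost with the mean of all its probe sets (0.150), and 2 of its 4 probe sets had the opposite sign in that comparison. Both were dim, with means of 6.65 and 5.52 over the 6 arrays against 11.27 for the one used.

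Succinyl-CoA synthetase pairs the alpha subunit Suclg1 with a beta subunit that uses ADP (Sucla2) or GDP (Suclg2). Suclg1 read 12.14 and 12.55 in adult cardiomyocytes, 11.83 and 11.54 in neonatal cardiomyocytes, and 9.75 and 10.34 in fibroblasts. Sucla2 read 12.87 and 12.88 in adult cardiomyocytes, 12.34 and 11.90 in neonatal cardiomyocytes, and 10.53 and 10.88 in fibroblasts. Suclg2 read 11.68 and 11.47 in adult cardiomyocytes, 11.12 and 9.37 in neonatal cardiomyocytes, and 9.37 and 9.12 in fibroblasts. Suclg1 and Sucla2 had 3 groups without overlap, whereas neonatal cardiomyocyte replicate 2 of Suclg2 nearly met the fibroblast arrays and replicate 1 lay nearer the adult ones. Between adult cardiomyocytes and fibroblasts Suclg1 rose by 2.29, Sucla2 by 2.17 and Suclg2 by 2.32 (adjusted p = 0.0106, 0.00853 and 0.0457). Between neonatal cardiomyocytes and fibroblasts the differences were 1.42 for Sucla2 (0.0701) and 1.00 for Suclg2 (0.488). Between adult and neonatal cardiomyocytes they were 0.76 and 1.33. With the mean of all probe sets the Sucla2 and Suclg2 calls between adult cardiomyocytes and fibroblasts were lost (0.0844 and 0.0641), as was the Suclg2 call with the probe set of highest SD (0.0519). The other 2 Sucla2 probe sets, with means of 4.73 and 3.48 over the 6 arrays against 11.90 for the one used, had the opposite sign there. Whether the beta subunits differ from each other in these contrasts was not tested. The Sucla2 promoter is among those printed above.

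Succinate dehydrogenase, the enzyme that the cycle shares with the respiratory chain, has 4 subunits. Sdha, the flavoprotein, whose promoter held the NRF1 letters 3 times, read 13.33 and 13.30 in adult cardiomyocytes, 12.99 and 12.19 in neonatal cardiomyocytes, and 10.80 and 11.01 in fibroblasts. Sdhb, the iron-sulphur subunit, read 13.62 and 13.68 in adult cardiomyocytes, 13.17 and 12.67 in neonatal cardiomyocytes, and 10.86 and 11.53 in fibroblasts. In both genes the groups were apart, and between adult cardiomyocytes and fibroblasts Sdha rose by 2.41 and Sdhb by 2.46 (adjusted p = 0.0107 and 0.0104).

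The membrane anchors of the enzyme are Sdhc and Sdhd. Sdhd read 12.23 and 12.37 in adult cardiomyocytes, 12.23 and 11.86 in neonatal cardiomyocytes, and 10.01 and 10.69 in fibroblasts, with neonatal cardiomyocyte replicate 1 level with the lower adult array, and rose by 1.95 between adult cardiomyocytes and fibroblasts (0.0146). Sdhc read 12.33 and 11.30 in adult cardiomyocytes, 12.08 and 10.74 in neonatal cardiomyocytes, and 10.58 and 9.44 in fibroblasts. As in Ogdh, replicate 1 exceeded replicate 2 in each group, by 1.02, 1.34 and 1.14, and the adult and neonatal cardiomyocyte arrays overlapped. Sdhc was the only cycle gene without a call between adult cardiomyocytes and fibroblasts, although its difference of 1.80 ± 0.65 was of a size with those of Dlst and Sdhd.

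Downstream, Fh1, fumarate hydratase, read 12.94 and 12.87 in adult cardiomyocytes, 12.92 and 11.91 in neonatal cardiomyocytes, and 10.51 and 10.83 in fibroblasts. It rose by 2.24 between adult cardiomyocytes and fibroblasts (0.0177), and its adult arrays overlapped with neonatal cardiomyocyte replicate 1. Mdh2, the mitochondrial malate dehydrogenase that closes the cycle, read 13.87 and 13.71 in adult cardiomyocytes, 13.71 and 13.37 in neonatal cardiomyocytes, and 12.47 and 12.57 in fibroblasts. Its rise of 1.27 ± 0.20 between adult cardiomyocytes and fibroblasts (2.42-fold, adjusted p = 0.0159) was smaller than that of the other called cycle genes on the probe sets used.

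In the malate-aspartate shuttle, Mdh1, the cytosolic malate dehydrogenase, read 13.87 and 13.80 in adult cardiomyocytes, 13.76 and 13.26 in neonatal cardiomyocytes, and 11.15 and 11.46 in fibroblasts. It rose by 2.20 ± 0.24 in neonatal cardiomyocytes over fibroblasts (4.61-fold, adjusted p = 0.0424) and by 2.53 ± 0.24 in adult cardiomyocytes over fibroblasts (0.00758). Adult and neonatal cardiomyocytes lay within 0.33 of each other in the mean (0.446), and only 3 of the 5 Mdh1 probe sets had that sign. The others had means of 6.25 and 4.37 over the 6 arrays, against 12.88 for the one used. On the probe sets used, the cytosolic enzyme differed by 2.20 and the mitochondrial one, Mdh2, by 1.02 (0.0911) between the neonatal cell types. On the other Mdh1 probe sets that difference was 1.61, 1.05, 2.06 and −0.05, from the brightest to the dimmest. It was 1.17 on the second Mdh2 probe set. Whether both enzymes differ from each other was not tested.

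The aspartate transaminases are Got1 in the cytosol and Got2 in the mitochondrion. Got1 read 13.04 and 12.65 in adult cardiomyocytes, 11.99 and 11.17 in neonatal cardiomyocytes, and 9.62 and 9.13 in fibroblasts. Got2 read 13.33 and 13.19 in adult cardiomyocytes, 12.59 and 11.96 in neonatal cardiomyocytes, and 10.86 and 10.99 in fibroblasts. The groups did not overlap in either gene. Between adult cardiomyocytes and fibroblasts Got1 rose by 3.47 ± 0.36 (11.1-fold, adjusted p = 0.00822) and Got2 by 2.34 ± 0.26 (5.06-fold, 0.00864). The Got2 call was lost with its probe set of highest SD (0.0594). Adult and neonatal cardiomyocytes differed in them by 1.26 and 0.99 (0.134 and 0.119), and between neonatal cardiomyocytes and fibroblasts by 2.21 and 1.35 (0.0683 and 0.087).

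Slc25a11, which exchanges malate for alpha-ketoglutarate, read 12.10 and 11.90 in adult cardiomyocytes, 10.98 and 10.14 in neonatal cardiomyocytes, and 9.36 and 9.16 in fibroblasts. Between adult and neonatal cardiomyocytes it differed by 1.45 ± 0.32 (adjusted p = 0.0883). It was 1.30 higher in neonatal cardiomyocytes than in fibroblasts (0.137). In adult cardiomyocytes over fibroblasts it rose by 2.75 ± 0.32 (6.72-fold, adjusted p = 0.00922).

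The aspartate-glutamate carriers are Slc25a12 (aralar), known from heart, muscle and brain, and Slc25a13 (citrin), best known from liver. Slc25a12 read 11.86 and 11.35 in adult cardiomyocytes, 11.31 and 10.68 in neonatal cardiomyocytes, and 8.79 and 8.95 in fibroblasts. Slc25a13 read 11.27 and 10.72 in adult cardiomyocytes, 9.82 and 8.06 in neonatal cardiomyocytes, and 6.95 and 6.35 in fibroblasts. Both were ordered adult cardiomyocytes, neonatal cardiomyocytes, fibroblasts without overlap. In adult cardiomyocytes over fibroblasts Slc25a13 rose by 4.35 ± 0.62 (20.4-fold, adjusted p = 0.0137), against 2.74 ± 0.30 for Slc25a12 (0.00877). Between adult and neonatal cardiomyocytes the differences were 2.05 ± 0.62 for Slc25a13 (0.149) and 0.61 ± 0.30 for Slc25a12 (0.297), neither called. On the other Slc25a12 probe sets, both dimmer, that difference was 1.24 (1436440_at) and −0.05 (1444489_at). Slc25a13 has 1 probe set. The neonatal cardiomyocyte arrays of Slc25a13 differed by 1.76. Whether the carriers differ from each other was not tested, and their levels come from different probe sets.

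**Figure D3:**
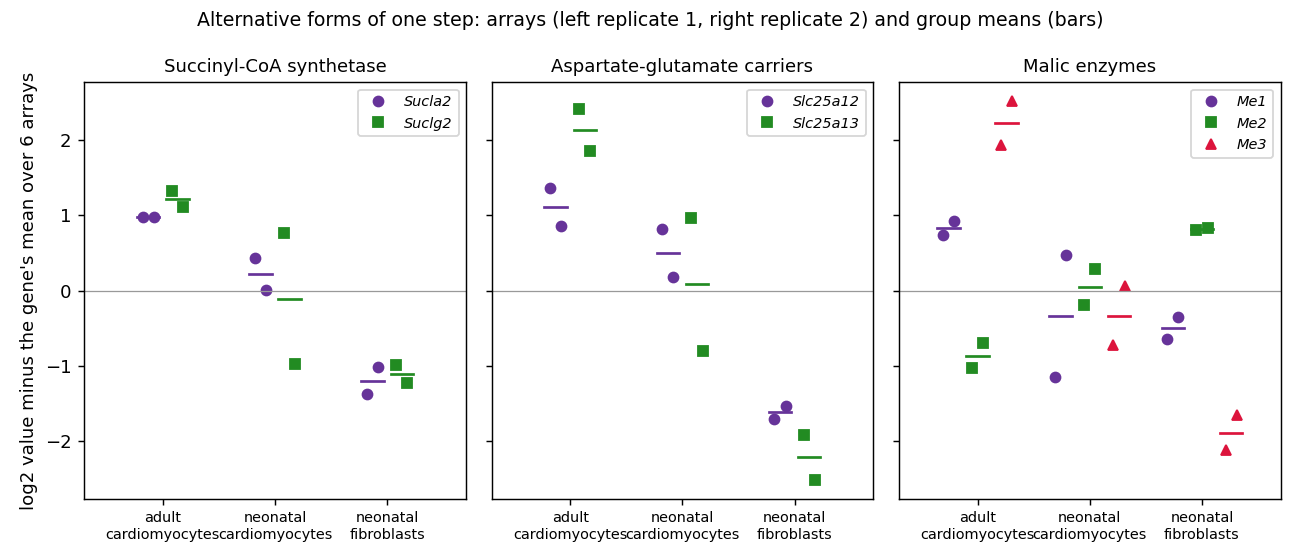
Log2 value minus the gene's own mean over the 6 arrays (y axis) for alternative forms of succinyl-CoA synthetase, the aspartate-glutamate carrier and malic enzyme, in adult cardiomyocytes, neonatal cardiomyocytes and neonatal fibroblasts (x axis). Points are arrays, replicate 1 left of replicate 2, and bars are means of 2 arrays; Me3 is highest and Me2 lowest in adult cardiomyocytes.

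Of the malic enzymes, Me3 rose and Me2 fell in adult cardiomyocytes over fibroblasts, and Me1 was not called. Me3, the mitochondrial NADP-dependent form, read 9.35 and 9.94 in adult cardiomyocytes, 6.70 and 7.48 in neonatal cardiomyocytes, and 5.31 and 5.76 in fibroblasts. Every adult array lay at least 1.87 above every neonatal cardiomyocyte array, and the fibroblast arrays were lowest. Me3 rose by 2.56 ± 0.37 in adult over neonatal cardiomyocytes (5.89-fold, adjusted p = 0.0448) and by 4.11 ± 0.37 in adult cardiomyocytes over fibroblasts (17.3-fold, 0.00712). Between neonatal cardiomyocytes and fibroblasts it differed by 1.55 (0.133). It has 1 probe set, and replicate 2 exceeded replicate 1 in each group.

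Me2, the mitochondrial form that can use NAD, ran the other way and read 6.36 and 6.69 in adult cardiomyocytes, 7.20 and 7.68 in neonatal cardiomyocytes, and 8.19 and 8.22 in fibroblasts. The adult arrays were lowest and the fibroblast arrays highest, without overlap. It fell by 1.68 ± 0.24 between adult cardiomyocytes and fibroblasts (3.21-fold lower, adjusted p = 0.0135), the only gene of the set to fall in any comparison. Its differences of −0.92 between adult and neonatal cardiomyocytes and −0.76 between neonatal cardiomyocytes and fibroblasts were not called (0.120 and 0.214). All 4 Me2 probe sets had the same sign in each comparison.

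Me1, the cytosolic form that supplies NADPH, read 10.81 and 11.00 in adult cardiomyocytes, 8.92 and 10.55 in neonatal cardiomyocytes, and 9.44 and 9.73 in fibroblasts. Neonatal cardiomyocyte replicate 2 lay near the adult arrays, and replicate 1 below the fibroblast arrays. In the fit of all 6 arrays no Me1 difference was called, with 1.17 ± 0.54 between adult and neonatal cardiomyocytes (0.271) and 0.15 ± 0.54 between neonatal cardiomyocytes and fibroblasts (0.951). Between adult cardiomyocytes and fibroblasts Me1 differed by 1.33 ± 0.54 (0.145), and was called by limma at adjusted p = 0.022 in a fit of only those 4 arrays. Me1, Me2 and Me3 were the 3 genes of the set in which neonatal cardiomyocyte replicate 1 lay below replicate 2.

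Other genes of the pathway, listed by role, had calls in both directions between adult cardiomyocytes and fibroblasts. Of these genes 28 were analysed here. In adult over neonatal cardiomyocytes 2 of the 28 rose and 0 fell, where 1.08% of all genes rose and 1.22% fell, with a median difference of 0.66. They were Sdhaf4, an assembly factor of succinate dehydrogenase (1.11, adjusted p = 0.0486), and Pdp2, a phosphatase that activates pyruvate dehydrogenase (1.94, 0.048). Between neonatal cardiomyocytes and fibroblasts limma called 0, where 0.819% of all genes were called. It passed 12 at unadjusted p under 0.05, against 16.3% of all genes. The median was 0.07, with 15 higher and 13 lower means.

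Between adult cardiomyocytes and fibroblasts 13 of these 28 rose and 3 fell, where 10.1% of all genes rose and 11.0% fell, with a median of 0.86. The largest rise was that of Pdk4, a kinase that inactivates pyruvate dehydrogenase, by 6.03 (0.00864). Pdk1, another such kinase, rose by 3.78 and the phosphatase gene Pdp1 by 2.41. Mpc1, a subunit of the mitochondrial pyruvate carrier, rose by 2.50 and Gpd1, the cytosolic enzyme of the glycerol phosphate shuttle, by 2.66. Also called upward were Pdp2 (1.77), Pdpr (1.71), Sdhaf1 (0.84), Sdhaf3 (1.77), Sdhaf4 (1.64), the lipoate genes Lias (1.00) and Lipt1 (0.98), and the glutamate carrier Slc25a22 (0.85). The genes that fell were the citrate carrier Slc25a1 (−3.46, adjusted p = 0.0203), the mitochondrial phosphoenolpyruvate carboxykinase Pck2 (−3.03, 0.00877) and the kinase Pdk3 (−2.19, 0.0314).

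Mitochondrial genes outside the pathway were set beside these values. Of 10 listed genes of protein import, outer membrane channels and mitochondrial maintenance, 9 were measured. Their median difference was 0.11 between adult and neonatal cardiomyocytes, 0.43 between neonatal cardiomyocytes and fibroblasts, and 0.71 between adult cardiomyocytes and fibroblasts, where the 31 genes had 0.74, 1.67 and 2.39. In the last comparison 3 of the 9 rose and 0 fell, where 10.1% of all genes rose and 11.0% fell. The difference between the lists was not tested.

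**Figure D4:**
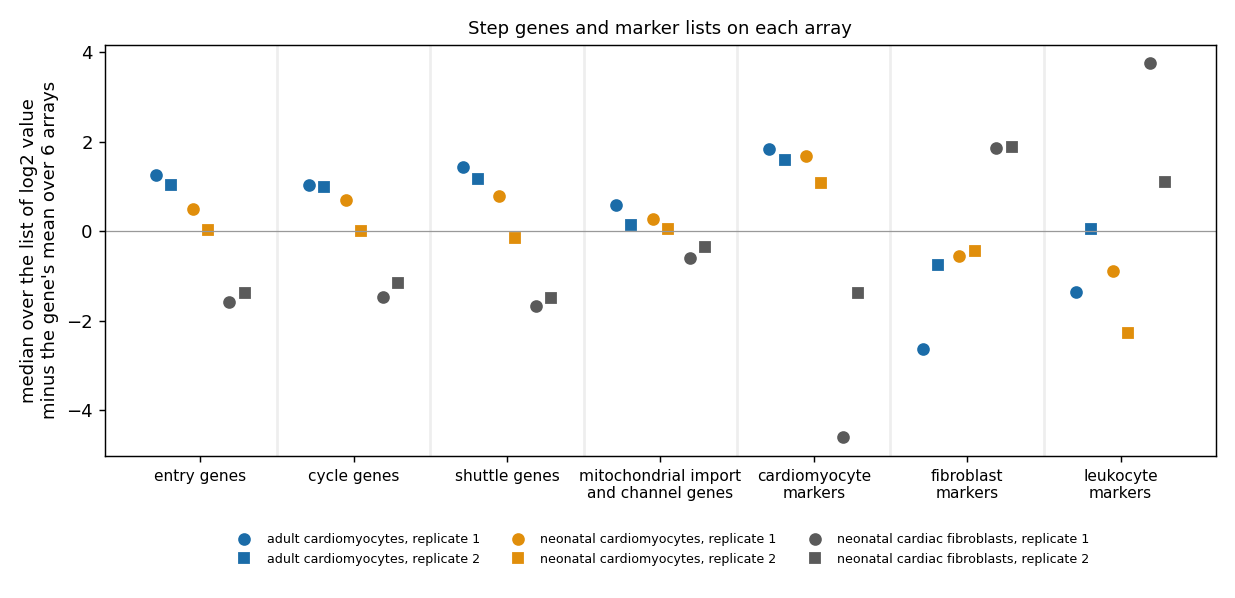
Median over a list of each gene's log2 value minus its own mean over the 6 arrays (y axis) for the entry, cycle and shuttle genes, 9 other mitochondrial genes, and markers of cardiomyocytes, fibroblasts and leukocytes (x axis). Colours and symbols are those of the plot of values by array. For entry, cycle and shuttle genes neonatal cardiomyocyte replicate 1 lies nearer the adult arrays than replicate 2.

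Set against each gene's mean over the 6 arrays, the median of the 17 cycle genes was 1.04 and 0.98 in adult cardiomyocytes, 0.69 and 0.00 in neonatal cardiomyocytes, and −1.47 and −1.17 in fibroblasts. The 6 shuttle genes had 1.43 and 1.17 in adult cardiomyocytes, 0.77 and −0.15 in neonatal cardiomyocytes, and −1.67 and −1.50 in fibroblasts. Neonatal cardiomyocyte replicate 2 was the lower array of its pair for the cycle, shuttle and entry genes, for the cardiomyocyte markers (1.68 on replicate 1 and 1.08 on replicate 2) and for the endothelial markers (1.27 and −0.40). Among the endothelial markers Emcn went the other way (9.16 and 12.04). Replicate 2 was also lower for leukocyte (−0.88 and −2.27) and epicardial markers (0.47 and −0.09). In the epicardial list Tbx18 went the other way (8.48 and 9.53). The smooth muscle and pericyte markers gave no single direction. The median of their deviations was 0.20 and −0.57, and the median of their values 9.85 and 10.04. For the 9 other mitochondrial genes replicate 2 was lower as well (0.27 and 0.05). The fibroblast markers were split. The median of their deviations was −0.56 and −0.45, and the median of their values 11.05 and 9.94. Of these, Col1a1, Col3a1, Dcn and Postn were lower on replicate 2, and Tcf21, Col1a2, Pdgfra and Ddr2 were higher. The endothelial markers had 0.59 and 1.13 in adult cardiomyocytes and −1.73 and −0.96 in fibroblasts, where they were lowest, as were the cycle genes. Singled out after their values were seen, the pericyte marker Rgs5 (10.88 on replicate 1 and 6.35 on replicate 2) and Fabp4 of the fat cell list (12.39 and 7.92) split the neonatal cardiomyocyte pair the same way. Within the smooth muscle and pericyte list Myh11 (7.38 and 6.14) went with Rgs5. Acta2 (13.25 and 13.71), Tagln (9.85 and 12.84) and Pdgfrb (9.42 and 10.04) went the other way. Adipoq, the other gene of the fat cell list measured, was low on both arrays (3.75 and 3.17) and between 3.11 and 3.59 on the other arrays. The fibroblast pair differed more in cardiomyocyte markers (−4.61 and −1.38) than in cycle genes. The part of cardiomyocyte RNA in the fibroblast values of the cycle genes, and of endothelial, pericyte or fat cell RNA in the cardiomyocyte values, was not tested.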

How the data were processed

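The data are 6 Affymetrix arrays with 2 in each group, a number that limits the precision. The deposited table holds log2 values, and the submitters' processing notes name RMA, a method of background correction, quantile normalization and probe summary. Its version and the set of arrays it was run on are not given in the sources used here. Of 45101 probe sets 64 are controls, 34945 were named to 1 gene by GEO's platform annotation, 932 to several and 9160 to none. Controls were left out and each gene was read from its brightest probe set (by the 6-array mean), which gave 18193 genes; the 31 genes have 71 probe sets. A model with 3 group means was fitted on all genes with limma version 3.58.1 under R 4.3.3 (lmFit, then eBayes; two-sided), with 3 residual and 2.18 prior degrees of freedom, with Benjamini-Hochberg adjustment across the 18193 genes. In the text, rose and fell are kept for adjusted p under 0.05, and SE is limma's standard error. The fit was tested on simulated data. The genes and lists were chosen with earlier results of these data known. By the rule for named genes, array values were to be given for members called in any comparison, the 4 with the largest difference in each, those of opposite sign and alternative forms of a step; Sdhc, outside that rule, was added after its values were seen. Alternatives covered the grouping, the replicate block, the arrays fitted, the probe set, a filter on low values, the scaling, the moderation and each array left out.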

Additional observations from a re-analysis of the deposited data

How the results depend on the processing

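The replicate number was a block in 1 alternative: it left 1 member called between adult and neonatal cardiomyocytes, 0 between neonatal cardiomyocytes and fibroblasts (28 at unadjusted p under 0.05; adjusted p 0.0595 for Mdh1 and 0.0602 for Pdhx) and 29 between adult cardiomyocytes and fibroblasts, with Sdhc added at 0.0103. With the block 607, 0 and 4811 of all genes were called in these comparisons. Replicate differences correlated over genes at 0.27, 0.21 and 0.18 between the pairs of groups, but the labels give the number no shared litter or day. Between neonatal cardiomyocytes and fibroblasts the 2 calls became 0 with the titles' groups, without both neonatal replicate 1 arrays, with only those 4 arrays, with the mean of all probe sets or with the probe set of highest SD, with 0, 23, 26, 24 and 25 members at limma's unadjusted p under 0.05. They became 8 among genes above the median mean, 1 after quantile normalization, 4 with a trend and robust prior, and 0 (27 unadjusted) without both neonatal replicate 2 arrays, an alternative chosen after seeing the data. Leaving out single arrays gave 0 to 10. The median difference was 1.20 without both neonatal replicate 1 arrays and 2.09 without both replicate 2 arrays. With the titles' groups it reversed to −0.40, and 29 of the 31 members reversed, all but Me1 and Me3: Cs (−0.29), Dlat (−0.52), Dld (−0.44), Dlst (−0.32), Fh1 (−0.67), Got1 (−0.16), Got2 (−0.38), Idh2 (−1.47), Idh3a (−0.47), Idh3b (−0.32), Idh3g (−0.56), Mdh1 (−0.41), Mdh2 (−0.23), Me2 (0.22), Ogdh (−0.22), Pcx (0.19), Pdha1 (−0.45), Pdhb (−0.57), Pdhx (−0.29), Sdha (−0.51), Sdhb (−0.58), Sdhc (−0.10), Sdhd (−0.53), Slc25a11 (−0.32), Slc25a12 (−0.40), Slc25a13 (−0.58), Sucla2 (−0.39), Suclg1 (−0.44) and Suclg2 (−0.75). Me1 ranged from −0.66 (reversed, without neonatal cardiomyocyte replicate 2) to 0.97 over single arrays left out, and reversed without both neonatal replicate 2 arrays (−0.51). Between adult and neonatal cardiomyocytes the 1 call became 0 with the titles' groups, without both neonatal replicate 1 or both replicate 2 arrays, with only those 4 arrays, and without each single array (0 to 0), with 7, 20, 4, 14 and 3 to 21 members at unadjusted p under 0.05. The titles' groups moved the median to 1.81, and the mean of all probe sets reversed Mdh1 (−0.24). Without neonatal cardiomyocyte replicate 2 and without both replicate 2 arrays Fh1 (−0.0156), Idh2 (−0.12) and Sdhc (−0.27) reversed; over single arrays left out they reached 0.99, 1.82 and 1.08, and Sdhc also reversed without adult replicate 1 (−0.11). With the probe set of highest SD the gene called was Dlat, and Me3 had an adjusted p of 0.0524. Between adult cardiomyocytes and fibroblasts the 28 calls became 0 with the titles' groups and 11 without both neonatal replicate 1 arrays, and ranged from 0 to 29 over single arrays left out; they became 25 with the mean of all probe sets (Dlst, Sucla2 and Suclg2 lost) and 26 with the probe set of highest SD (Got2 and Suclg2 lost). The median was 1.36 with the titles' groups and 2.09 with the mean of all probe sets. Calls over all genes moved as well. Between neonatal cardiomyocytes and fibroblasts they went from 149 to 0 with the titles' groups, with only those 4 arrays and with the probe set of highest SD. They were 59 with the mean of all probe sets, 384 above the median mean, 108 after quantile normalization and 216 with a trend and robust prior. The causes were not tested. Over all alternatives, of the values of the 31 members in the 3 comparisons 1360 kept direction and side of the threshold, 160 lost a call, 22 gained one and 39 reversed. Of the 39, 29 reversed with the titles' groups, which the marker medians did not follow. Some settings gave the same values and are counted more than once. Examples are the fit of only 2 groups and the fits without 1 array of the third group.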

Other observations

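Replicate 1 exceeded replicate 2 in all 3 groups for 7 of the 31 genes (22.6%), against 16.6% of all genes: Idh3b, Ogdh, Suclg2, Sdhc, Got1, Slc25a11 and Slc25a13. A second Got2 probe set, 1417716_at, read 11.76 and 10.94 in adult cardiomyocytes, 11.20 and 9.43 in neonatal cardiomyocytes, and 9.15 and 7.80 in fibroblasts, whereas the probe set used for Got2 had gaps (replicate 1 minus replicate 2) of 0.14 in adult cardiomyocytes, 0.63 in neonatal cardiomyocytes and −0.13 in fibroblasts. A second Pdha1 probe set, 1449137_at, read 12.48 and 11.55 in adult cardiomyocytes, 11.93 and 10.60 in neonatal cardiomyocytes, and 9.88 and 9.49 in fibroblasts. The cause of these gaps was not tested.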
